A study of Mus musculus with 6 samples.

Results

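The genes described here were at or near zero in every control library of a mouse lung cancer line and were read in every library of the same line that carried kiaa1522 sgRNA. The rule was at most 3 raw counts in each of the 3 sgcontrol libraries and more than 3 in each of the 3 libraries labelled sgkiaa1522, and Tnfrsf11b was left out of it. It chose 141 of 34745 genes, which is 0.406% of all genes in the count tables and 0.679% of the 20779 genes with at most 3 counts in each sgcontrol library. Since the counts themselves chose these genes, their counts, levels and folds are given as a description and without a test.

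The cells were the line 889, a murine lung cancer line that the labels assign to C57BL/6 lung, and all of them carried a lentiCRISPR vector with Cas9, which was lentiCRISPRv2 for the kiaa1522 sgRNA and another lentiCRISPR plasmid for the control. The 3 sgcontrol libraries came from cells with an EGFP sgRNA, labelled control. The other 3 came from cells with a kiaa1522 sgRNA, labelled KIAA1522-downregulated, and which of the sgRNA designs was sequenced is not given in the sources used here. Cells that took up the vector were enriched with puromycin or by sorting, and nothing says whether the 3 libraries of a group came from separate cultures, so any p-value below measures only the spread among these libraries.

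The sgcontrol libraries held from 16581000 to 18559660 counts and the libraries labelled sgkiaa1522 from 12220001 to 18609376. A count of 3 corresponded to between 0.161 and 0.245 counts per 1000000 (CPM), and intervals below cover counting error only. kiaa1522 itself, listed as C77080, had 2214, 2404 and 2064 counts in sgcontrol and 2554, 3726 and 3667 in the libraries labelled sgkiaa1522. Its mRNA was thus higher, not lower, where the label says downregulated, with a log2 fold change of 0.73 and an adjusted p of 9.1e-05 by edgeR's quasi-likelihood test. An mRNA level does not show what a cut does to the protein, and the groups are therefore named by their labels throughout. The lung marker Nkx2-1 had 970, 1096 and 227 counts in sgcontrol and 132, 174 and 671 in the others, so libraries of 1 group were not alike in every marker.

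A mammalian cell line transcribes only part of its genes, and the silent remainder includes receptors, hormones and enzymes that belong to other tissues. Promoters rich in CpG dinucleotides (a C followed by a G) usually drive genes that many tissues use, and they can be kept silent by DNA methylation or by histone marks. Promoters with few CpG, often with a TATA box, tend to drive genes of a particular tissue or response.

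Most of the 141 genes lay close to the lower limit of the rule. In 100 of them the lowest of the 3 sgkiaa1522-labelled counts was between 4 and 9, in 28 it was between 10 and 29, and in 13 it was at least 30. These 13 genes, 0.0374% of all genes, held 36.8% of the counts of all 141 in the libraries labelled sgkiaa1522. In the sgcontrol libraries, 32 of the 141 had no count at all, 56 had a sum of 1 to 3 counts over the group and 53 had a sum above 3, of at most 9. In these bulk libraries, a few cells with a high level and many cells with a low one cannot be told apart.

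**Figure D1:**
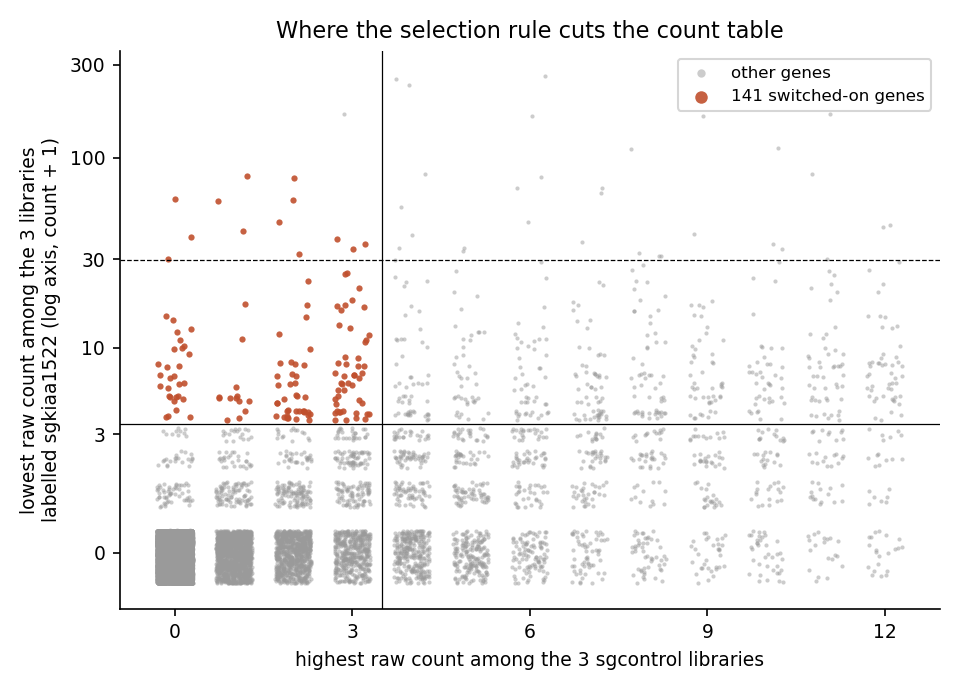
Each point is 1 gene, placed by its highest raw count among the 3 sgcontrol libraries (horizontal axis, shown up to 12) and its lowest raw count among the 3 libraries labelled sgkiaa1522 (vertical log axis, count + 1), with a small random shift so that points do not hide each other. Solid lines mark the limits of 3 counts and the dashed line 30 counts. The 141 chosen genes fill the upper left corner, and 13 of them lie at or above 30.

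The limits cut through a continuous cloud of genes, as the plot of the selection rule shows. Among the members of lowest level, Gm37444 had 3, 0 and 1 counts in sgcontrol and 4, 4 and 5 in the others, and Chrm4, a muscarinic acetylcholine receptor, had 0, 2 and 2 against 5, 5 and 4. Gpr75, Themis3 and 4933433C11Rik likewise entered with 4 to 6 counts in each library labelled sgkiaa1522. Just outside, 70 genes met the sgcontrol limit with a lowest sgkiaa1522-labelled count of 3, and 60 genes failed because their highest sgcontrol count was 4.

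Some of the excluded genes were read as much as the highest members or more. Rcn3, a calcium-binding protein of the endoplasmic reticulum, had 4, 4 and 3 counts in sgcontrol and 253, 272 and 354 in the libraries labelled sgkiaa1522. Smoc1, a secreted matrix protein, had 3, 4 and 2 against 235, 302 and 298, and Ryr3, an intracellular calcium channel, had 1, 2 and 4 against 83, 99 and 115. On the other side, Trf (transferrin) had 1, 0 and 1 against 8, 24 and 3, and Zscan4d had 0, 0 and 2 against 3, 9 and 12. The mirror rule, with the groups exchanged, chose 128 genes or 0.368%. With counts scaled to a common depth the 2 rules chose 171 and 112 genes by library size and 136 and 125 by library size with edgeR's trimmed mean (TMM) factors.

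By annotation, 123 of the 141 genes were protein coding, 7 were TEC (regions awaiting experimental support), 4 were processed transcripts, 4 lincRNAs and 3 antisense RNAs. Protein-coding genes were switched on in 1.31% of the 9384 that had at most 3 counts in each sgcontrol library, processed transcripts in 0.952% of 420, TEC regions in 0.366% and lincRNAs in 0.131% of 3047. All 13 genes with at least 30 counts were protein coding. They were the receptor gene Adgrg2, the signalling genes Mfhas1, Dab2 and Lyn, the nuclear protein genes Morc4, Zfp202 and Cdca7l, and Dnajb9, Gspt2 and Parp12, which act in protein folding, translation and ADP-ribosylation. Gmpr, Arhgap44 and Maged2 complete the class.

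**Figure D2:**
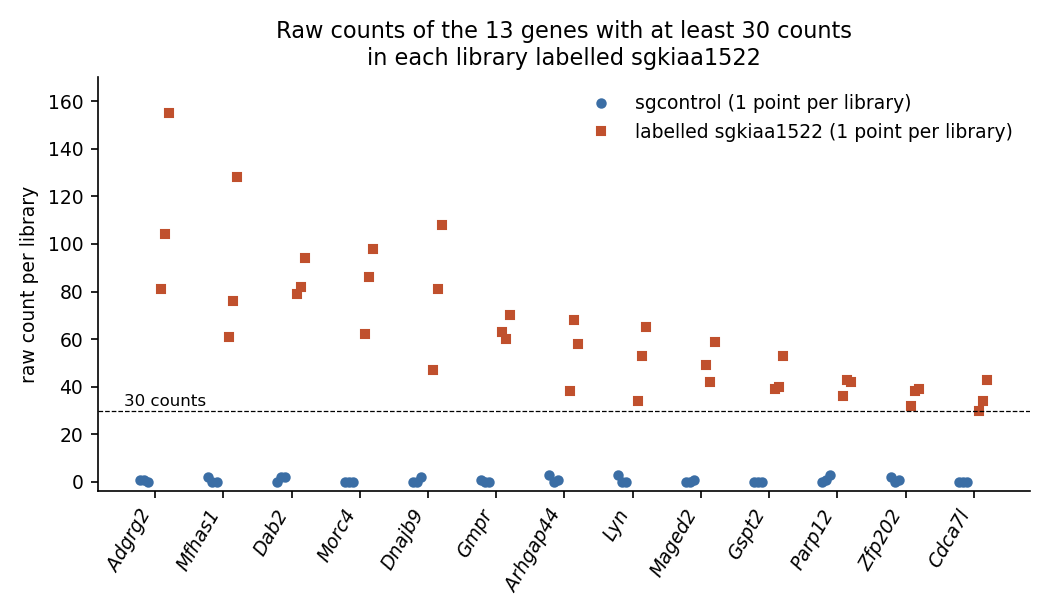
Raw counts (vertical axis) of the 13 genes with at least 30 counts in each library labelled sgkiaa1522, 1 point per library, with the dashed line at 30 counts. The 3 sgcontrol points of every gene lie between 0 and 3, and the highest sgkiaa1522-labelled point is the 155 counts of Adgrg2.

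The start sites of the 13 genes are a feature that the rule did not use. RefSeq promoter windows on GRCm38.p6, from 250 bases before to 50 after a start, were listed for 10 of the 13 (not for Mfhas1, Lyn and Gspt2). In 5 of the 10 the RefSeq start was the first base of the gene in GENCODE, and in 3 it lay more than 1000 bases inside the gene. The following 120 bases end at the base before the start, read 5′ to 3′ on the gene's strand, with CpG in capitals. They are 4 genes whose starts agree between the annotations, the first 3 as examples of CpG-rich windows and Gmpr as the 1 window of the 10 that was not CpG-rich by the measure used here.
Parp12, chr6:39118350-39118469, minus strand: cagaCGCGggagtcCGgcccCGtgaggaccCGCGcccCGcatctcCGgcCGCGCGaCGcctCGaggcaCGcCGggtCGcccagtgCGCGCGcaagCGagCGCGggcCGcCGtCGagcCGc
Adgrg2, chrX:160390570-160390689, plus strand: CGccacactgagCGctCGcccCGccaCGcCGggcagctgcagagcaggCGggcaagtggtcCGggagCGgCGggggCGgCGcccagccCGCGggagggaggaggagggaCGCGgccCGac
Zfp202, chr9:40192196-40192315, plus strand: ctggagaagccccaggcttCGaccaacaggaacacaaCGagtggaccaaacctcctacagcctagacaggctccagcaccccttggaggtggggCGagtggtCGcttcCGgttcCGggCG
Gmpr, chr13:45507324-45507443, plus strand: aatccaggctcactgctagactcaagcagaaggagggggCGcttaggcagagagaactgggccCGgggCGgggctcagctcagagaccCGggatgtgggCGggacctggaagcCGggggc

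The 4 stretches above hold 26, 17, 7 and 6 CpG in the order shown. Within the whole 300-base window, Cdca7l and Parp12 had 46 CpG each, Dnajb9 had 35, Adgrg2 had 30, Morc4 had 16 and Gmpr had 15. A window was called CpG-rich when its GC content was at least 50% and its ratio of observed to expected CpG was at least 0.6, and where RefSeq lists several starts the one with the most CpG was used. By this measure 9 of the 10 windows (90%) were CpG-rich, with a median of 19 CpG. Among the other members with a window, 23 of 71 (32.4%) were CpG-rich, with a median of 8 CpG. Protein-coding genes with more than 3 counts in all 6 libraries were CpG-rich in 76.1% of 8787 windows, and those with at most 3 counts in all 6 libraries in 18.7% of 6440. The share of the 10 windows was thus nearer to that of genes read in every library, and the 71 lay between these and the windows of silent genes. With the stricter limits of a ratio of 0.75 and a GC content of 55%, the share was 40% for the 10, 18.3% for the 71, 53.1% for genes read in every library and 10.9% for silent genes. With the first listed start in place of the one with the most CpG, these shares were 70%, 28.2%, 72.3% and 17.5%.

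**Figure D3:**
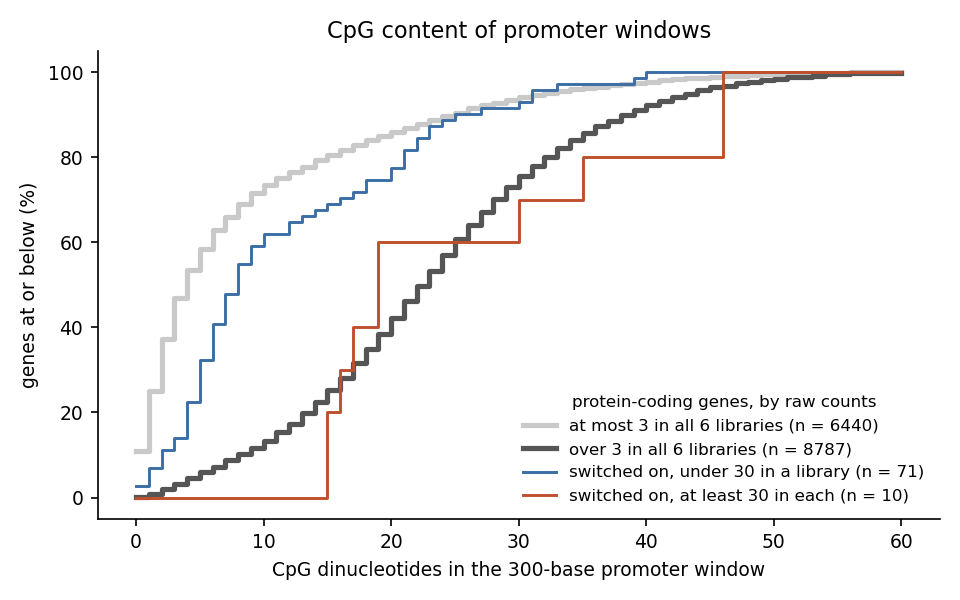
Share of protein-coding genes (vertical axis, %) whose 300-base promoter window holds at most the number of CpG on the horizontal axis, for 4 classes by raw count. The 10 windows of the genes with at least 30 counts begin at 15 CpG, while 54.9% of the 71 windows of the other members hold 8 CpG or fewer.

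Letters of known promoter elements were searched on both strands of the same windows. TATAAA, the core of a TATA box, was in none of the 10 windows and in 13 of the 71 (18.3%), against 5.97% of windows of genes read in every library and 20.2% of those of silent genes. TGANTCA, the letters bound by AP-1, was in none of the 10 and in 10 of the 71 (14.1%), against 4.47% and 9.84%. GGGCGG, a GC box that itself holds a CpG, was in 5 of the 10 and in 28 of the 71 (39.4%), against 69% and 26.3%. CACGTG was in 2 of the 10 and in 4 of the 71 (5.63%), against 10.5% and 5.59%, and TGACGTCA and the endoplasmic reticulum stress element (ERSE) were in no member's window, with shares of 3.52% and 0.148% among genes read in every library. A match of letters is a description of the sequence and not a measured binding site.

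A pair of members of the lower class, chosen after their windows were seen, show the other kind of promoter. Sprr1a, a cornified envelope protein of squamous epithelium, had no CpG in its window, and Cyp1a1, a xenobiotic-metabolizing cytochrome P450, had 4. In the 120 bases before each start below, capitals mark TATAAA and TGANTCA in place of CpG.
Sprr1a, chr3:92485882-92486001, minus strand: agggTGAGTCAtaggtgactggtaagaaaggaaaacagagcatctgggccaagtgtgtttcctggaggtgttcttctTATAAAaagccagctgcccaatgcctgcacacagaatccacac
Cyp1a1, chr9:57697493-57697612, plus strand: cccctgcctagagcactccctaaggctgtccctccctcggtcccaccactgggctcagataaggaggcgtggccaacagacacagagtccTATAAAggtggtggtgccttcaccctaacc

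Among the 16 receptor genes of the set, Adgrg2 (ENSMUSG00000031298, chrX:160390690-160498070) stood highest. It encodes an adhesion G protein-coupled receptor best known from the ducts of the epididymis. Adgrg2 had 1, 1 and 0 counts in sgcontrol and 81, 104 and 155 in the libraries labelled sgkiaa1522. The mean level was 7.13 ± 1.77 CPM (SD, n = 3), the highest of the 141, and the ratio to sgcontrol was 189 (95% exact interval 51.8 to 1564). Counts of replicate 3 were the highest of the 6, and the lowest sgkiaa1522-labelled count was still 81 against a highest sgcontrol count of 1.

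The next receptors were well below it. Tgfbr3 (betaglycan, a co-receptor for TGF-β ligands) had 0, 2 and 1 counts against 23, 43 and 44, a ratio of 40.7 (13.6 to 200), and missed the class of at least 30 through replicate 1 alone. Crlf2, the TSLP receptor chain, had 0, 3 and 1 against 19, 26 and 18, and Adgra2, an adhesion receptor of endothelial Wnt signalling, had 0, 0 and 0 against 10, 15 and 36. The other 12 receptor genes had sums from 14 to 40 counts over the 3 libraries labelled sgkiaa1522.

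Receptor partners differed in whether they were read at all. Tgfbr1 and Tgfbr2, the signalling receptors that betaglycan feeds, had between 1190 and 2753 counts in every library, with log2 fold changes of 0.35 (adjusted p = 0.029, edgeR) and 0.13 (0.25). For Crlf2, its partner chain Il7r had at most 1 count in any library and its ligand Tslp had 0 in all 6. Il27ra, the IL-27 receptor chain, had 3, 0 and 3 counts against 5, 15 and 14, while its co-receptor Il6st had at least 1357 in every library and the ligand genes Il27 and Ebi3 at most 2. These partners were picked by name after the members were known.

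Among the 7 signalling adaptors and enzymes, 3 belonged to the class of at least 30 counts. Mfhas1 (ENSMUSG00000070056, chr8:35587798-35679449), a leucine-rich repeat protein first described from gene amplification in sarcoma, had 2, 0 and 0 counts in sgcontrol and 61, 76 and 128 in the libraries labelled sgkiaa1522. Its ratio was 147 (40.3 to 1220). Dab2 (ENSMUSG00000022150, chr15:6299788-6440712), a clathrin adaptor of endocytosis, had 0, 2 and 2 counts against 79, 82 and 94, a ratio of 70.7 (27.3 to 262). Replicate 3 was the highest library for both genes in raw counts, and no sgcontrol count exceeded 2.

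Lyn, a kinase of the Src family known from blood cells, was read together with an adaptor of its pathway. Lyn (ENSMUSG00000042228, chr4:3678115-3813122) had 3, 0 and 0 counts against 34, 53 and 65, a ratio of 56.2 (18.9 to 276). Pag1, a membrane adaptor that binds Csk, the kinase that holds Src kinases inactive, had 3, 0 and 0 against 25, 50 and 61 and fell short of the class in replicate 1 alone. Csk itself was read in all 6 libraries with between 1547 and 2483 counts and a log2 fold change of -0.11 (adjusted p = 0.28, edgeR). Src and Yes1 were also read in all 6 libraries, with at least 731 counts each and log2 fold changes of 0.19 (0.062) and 0.04 (0.82), whereas Fyn had at most 3 counts in any library. Lyn was thus read beside Src kinases that both groups shared. Rgs12, a regulator of G protein signalling, had 3, 0 and 0 counts against 25, 28 and 49, and Pkia, an inhibitor of protein kinase A, had none against 17, 13 and 28.

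The 12 nuclear and DNA-binding proteins held 7 genes with no count in any sgcontrol library, of 32 such genes among the 141. Morc4 (ENSMUSG00000031434, chrX:139821632-139871677), an ATPase with a CW zinc finger, had no count in sgcontrol and 62, 86 and 98 in the libraries labelled sgkiaa1522. Set against a floor of 3 counts over the sgcontrol group, it was at least 91.0-fold higher, the highest such bound of the 32, whose bounds ran from 6.29 with a median of 11.1. Cdca7l (ENSMUSG00000021175, chr12:117804289-117878706), a MYC-interacting nuclear protein, had none against 30, 34 and 43, at least 39.6-fold higher. Zfp202 (ENSMUSG00000025602, chr9:40192316-40213604), a zinc finger repressor, had 2, 0 and 1 counts against 32, 38 and 39, a ratio of 40.3 (13.4 to 199). For each of these 3 genes the libraries labelled sgkiaa1522 differed among themselves by less than 1.5-fold in CPM. Atf7ip2, a partner of ATF7, had none against 9, 35 and 14 and was less even.

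The closest relatives of Morc4 and Cdca7l were read in every library. Morc3 had between 691 and 1132 counts, with a log2 fold change of 0.31 (adjusted p = 0.072, edgeR), and Cdca7 had between 636 and 1196, with 0.26 (0.055). Neither passed the threshold of an adjusted p of 0.05 and a log2 fold change of 1.

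HOX genes, the homeobox regulators of body axis position, entered the set with few counts and at separate places. Hoxa10 had none in sgcontrol and 5, 9 and 8 in the libraries labelled sgkiaa1522. The lincRNA Halr1, at the other end of the same cluster and 118 kb away, had none against 6, 8 and 4, and Hoxb3, on chromosome 11, had none against 8, 8 and 14, although 52.9% of its exon bases are shared with the antisense gene Hoxb3os. Other genes of the cluster around Hoxa10 did not share its pattern. Hoxa3 had 71, 67 and 68 counts against 46, 41 and 49, and Hoxa7 had 18, 29 and 30 against 8, 7 and 12, so both were read in all libraries. Hoxa9 and Hoxa11, the genes on either side of Hoxa10, had at most 2 counts in any library. Near Hoxb3, Hoxb6 had 0, 1 and 0 counts against 6, 6 and 1, and Hoxb5, Hoxb4 and Hoxb2 had at most 4 in any library. Gbx1, another homeobox gene, had 1, 2 and 0 against 5, 8 and 7. HOX and Gbx1 counts were picked for description after their values were seen.

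The group of protein folding, translation and ADP-ribosylation, put together after the members were seen, consisted of 3 genes. All were in the class of at least 30 counts, which is no result about these functions. Dnajb9 (ENSMUSG00000014905, chr12:44205559-44210326), a co-chaperone of the endoplasmic reticulum that acts with the chaperone BiP and is a known target of the unfolded protein response, had 0, 0 and 2 counts in sgcontrol and 47, 81 and 108 in the libraries labelled sgkiaa1522. Per transcript length it was the highest of the 13, at 5.25 ± 1.49 transcripts per 1000000 (TPM, SD, n = 3). Its ratio was 131 (35.9 to 1087). BiP itself (Hspa5) had between 14710 and 16325 counts in sgcontrol and 23969, 18252 and 31450 in the others, a log2 fold change of 0.85 with an adjusted p of 0.017 (edgeR), which is under the fold threshold (without replicate 2 labelled sgkiaa1522 it was 1.10 and passed). Of further genes of this chaperone system, Dnajb11 had a log2 fold change of 0.49 (0.010) and Dnajc3 one of -0.17 (0.13).

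Gspt2 (ENSMUSG00000071723, chrX:94636069-94643244), a translation termination factor of the eRF3 type, had no count in sgcontrol and 39, 40 and 53 in the libraries labelled sgkiaa1522, at least 48.8-fold higher. Its paralogue Gspt1, which serves the same step in most cells, had between 1695 and 3953 counts in every library and a log2 fold change of 0.23 (adjusted p = 0.23, edgeR). Parp12 (ENSMUSG00000038507, chr6:39086410-39118349), an interferon-inducible mono-ADP-ribosyltransferase, had 0, 1 and 3 counts against 36, 43 and 42, a ratio of 33.6 (12.8 to 125). Its relatives had other values. Parp9 had a log2 fold change of -0.54 (0.011) and Parp10 one of -0.17 (0.11), and Parp14 had 82, 77 and 76 counts against 36, 39 and 40. Parp14 had too few counts to be tested.

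Of the 8 metabolic enzymes, Gmpr (ENSMUSG00000000253, chr13:45507444-45553800), which converts GMP to IMP, was the only one in the class of at least 30 counts. It had 1, 0 and 0 counts against 63, 60 and 70, a ratio of 214 (38.0 to 8502), and 4.94 ± 1.14 TPM (SD, n = 3). A share of 16.1% of its exon bases is common with Atxn1 on the other strand, which had medians of 484 and 763 counts. The paralogue Gmpr2 had 348, 487 and 450 counts against 228, 306 and 255, a log2 fold change of -0.54 (adjusted p = 0.017, edgeR). Gmpr2 was thus under the fold threshold, and it was more read than Gmpr in all 6 libraries.

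Cyp1a1 had 1, 3 and 2 counts against 11, 22 and 19, a ratio of 9.62 (4.13 to 27.4). Its inducer Ahr, the aryl hydrocarbon receptor, had 1113, 963 and 807 counts against 1186, 1963 and 1772, a log2 fold change of 0.91 (adjusted p = 4.8e-04, edgeR), just under the fold threshold (1.03 without sgcontrol replicate 1, which passed). Of other genes known to respond to this receptor, Cyp1b1 had a log2 fold change of -0.08 (0.44) and Tiparp one of 0.15 (0.37). Ahrr had at most 1 count, too few to show a difference. Whether the receptor bears on the counts of Cyp1a1 was not tested. Aldh1l2, a mitochondrial folate enzyme, had 2, 0 and 0 counts against 10, 15 and 14 and was the most even of the 141, with a ratio of 1.01 between its highest and lowest CPM among the libraries labelled sgkiaa1522. Cyp2b10, a drug-metabolizing cytochrome with close copies in the genome, had 3, 1 and 1 against 12, 14 and 9.

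The cytoskeleton group held 6 genes. Arhgap44 (ENSMUSG00000033389, chr11:65002039-65162961), a GTPase-activating protein of the cytoskeleton, had 3, 0 and 1 counts in sgcontrol and 38, 68 and 58 in the libraries labelled sgkiaa1522, a ratio of 45.5 (17.4 to 169). Arhgap6, a related protein encoded on the X chromosome, had none against 14, 32 and 38, at least 31.1-fold higher. The septin Sept5 had 0, 0 and 1 against 28, 26 and 17, and shares 83.7% of its exon bases with other annotated genes, including 48.6% with Gp1bb, whose median was at most 1 count in either group. Sept12 had 2, 0 and 3 against 8, 9 and 16.

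None of the 12 secreted ligands and plasma proteins reached 30 counts in each library. Adm, the vasoactive peptide adrenomedullin, was the highest, with 1, 3 and 2 counts in sgcontrol and 23, 29 and 21 in the libraries labelled sgkiaa1522, a ratio of 13.5 (5.91 to 38.0) and 2.65 ± 0.53 TPM (SD, n = 3). Both chains of its receptor were counted. Calcrl had 33, 25 and 38 counts against 51, 101 and 63, and Ramp2 had 8, 6 and 53 against 0 in all 3 libraries labelled sgkiaa1522. Neither chain had enough counts to be tested, Ramp2 rests largely on sgcontrol replicate 3, and part of its exons is shared with other genes.

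Tnfsf11, the osteoclast differentiation factor RANKL, had 0, 1 and 0 counts against 13, 11 and 14, a ratio of 42.2 (7.12 to 1709). Its receptor Tnfrsf11a had no count in any library, and its decoy receptor Tnfrsf11b, which the rule leaves out, had 0, 3 and 1 counts against 169, 277 and 279. Il1rn, the natural antagonist of interleukin 1, had 2, 1 and 1 against 9, 24 and 8. The receptor it blocks, Il1r1, had 2373, 2160 and 1961 counts against 810, 1341 and 1149, a log2 fold change of -0.83 (adjusted p = 2.1e-04, edgeR), while Il1b had between 8 and 12 in every library. Fcna, a ficolin of innate immunity, had 3, 3 and 0 against 17, 26 and 20.

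Other ligands, named here after their values were seen, were lower. Il17c, an epithelial cytokine, had 1, 1 and 3 counts against 5, 14 and 11. Fgf21, a hormone of fasting and cell stress, had 3, 3 and 3 against 8, 7 and 13, a ratio of 3.45 (1.58 to 8.32), and its co-receptor Klb had at most 1 count. For Tnfsf11, Fgf21 and Crlf2, at least 1 partner gene named here was thus at or near 0 in all 6 libraries.

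Matrix proteins and enzymes of glycans came to 7 genes, with Glt8d2, a glycosyltransferase, the highest at 3, 2 and 0 counts against 13, 43 and 41. Ggta1, which makes the α-gal epitope, had 2, 0 and 0 against 15, 19 and 28. P3h2, a collagen prolyl hydroxylase, had 3, 0 and 0 against 6, 12 and 19, and the cytosolic glycan-cleaving Engase had none against 13, 8 and 27. Nid2, a basement membrane protein, had 0, 3 and 0 against 4, 15 and 17. The 4 channels and transporters were lower, with sums from 19 to 36 counts. They include the sodium proton exchanger Slc9a9, the lysosomal channel Mcoln3 and the proton channel Otop1.

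The 4 caspase and inflammasome genes all had few counts. Casp1, the inflammatory caspase, had 2, 0 and 0 counts in sgcontrol against 4, 8 and 10, Nlrp3 had 3, 0 and 3 against 4, 7 and 7, and the adaptor Pycard that links them had at most 3 counts in any library. Nlrp4c, an oocyte gene with close copies, had none against 7, 6 and 12.

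The group of germ cell and early embryo proteins held 3 genes, all with sums of at most 35 counts, while Nlrp4c and Zscan4c, also known from oocytes and early embryos, are counted in other groups. Syce2, of the synaptonemal complex, had 3, 2 and 1 against 8, 13 and 14. Tmem95, of sperm, had 3, 3 and 3 against 6, 7 and 7, and so stood at the sgcontrol limit in each library. Tdpoz4, from a family of close copies, had 1, 2 and 0 against 5, 6 and 4. Reads of such families, which also include Zscan4c and Usp17lb, were kept only where they mapped uniquely, so their counts are uncertain.

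Another 41 protein-coding genes fell in no group. Maged2 (ENSMUSG00000025268, chrX:150806370-150814345), a MAGE family protein known for its part in renal salt transport, was the only one of them with at least 30 counts in each library. It had 0, 0 and 1 counts against 49, 42 and 59, a ratio of 166 (29.4 to 6617). Its relative Maged1 had at least 3371 counts in every library and a log2 fold change of 0.42 (adjusted p = 5.1e-04, edgeR), under the fold threshold. Rnf150, a membrane ubiquitin ligase, had 1, 2 and 3 against 17, 25 and 32, Tmem37, a membrane protein, had 0, 2 and 1 against 22, 17 and 22, and Cpne7, a copine, had 1, 3 and 2 against 17, 21 and 24. Sprr1a had 1, 0 and 2 against 7, 12 and 11.

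The 18 genes that are not protein coding had sums of 13 to 48 counts. Among the processed transcripts Gm20488 was the highest, with 3, 0 and 0 counts against 18, 19 and 11, and 48.5% of its exon bases are shared on the same strand with Medag, whose median was 164 counts in sgcontrol and 1239 in the others. The TEC region RP23-137A24.3 had 1, 2 and 1 against 14, 18 and 12, with 62.7% of its bases shared with Hddc3 on the other strand. The antisense RNAs 2010310C07Rik, Gm12352 and Gm28294 had sums from 16 to 23 counts. Whether the counting used strand is not given in the sources used here, so such reads cannot be assigned between overlapping genes.

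Overlap of this kind touched 50 of the 141 genes, 8 of them at 50% or more of their exon bases. Beside Gm20488, the shared partner passed the test as higher for Gm42686, which overlaps Abcb1a, for Gm21984, which overlaps Kctd13, and for Serinc4, which overlaps Serf2. Gm26920 shares 86.9% of its bases with Zfp82, which had medians of 155 and 105 counts, and Ptprcap shares 76.0% with Rps6kb2, at 298 and 346. Ptprcap also shares 26.8% with Coro1b on the same strand, at 4144 and 5169. Of the 13 genes with at least 30 counts, 8 share some exon bases, from 0.533% (Arhgap44) to 22.4% (Cdca7l), whose partner Dnah11 had a median of 0 in both groups.

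Per transcript length, the 141 genes spanned a wide range at a low level. TPM was computed from the counts and the union of exons in GENCODE M21. The median over the 141 was 0.639 TPM in the libraries labelled sgkiaa1522, from 0.1 to 5.96, and 36 genes reached a mean of 1 TPM. The 11954 genes with more than 3 counts in all 6 libraries had a median of 20.0 TPM. The order by TPM differed from the order by counts. Gm6665, a short gene with 3, 3 and 1 counts against 8, 8 and 10, came first at 5.96 ± 1.25 TPM, followed by Dnajb9, Gmpr and Adgrg2, the last at 3.72 ± 0.98 TPM (SD, n = 3 each). By their SDs, Gm6665, Dnajb9, Gmpr and Adgrg2 were not separated from their neighbours in that order. Pag1, 11th in CPM, stood 49th in TPM.

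**Figure D4:**
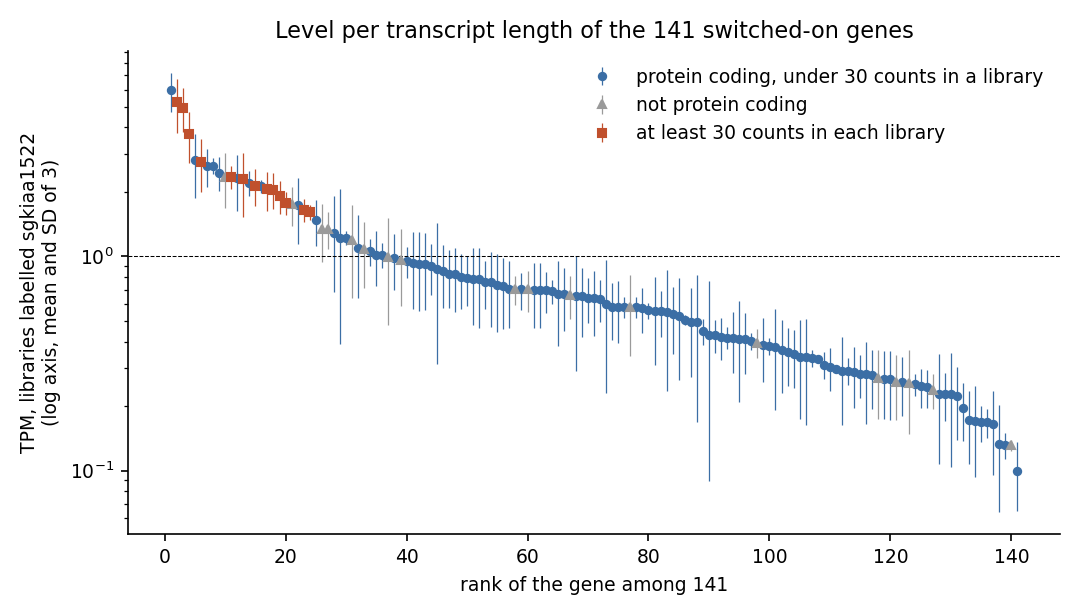
TPM (vertical log axis) of the 141 genes in the libraries labelled sgkiaa1522 against their rank, as mean and SD of 3 libraries, with the dashed line at 1 TPM. The lower arm of an SD is shortened where it would reach 0. The 13 genes with at least 30 counts, shown as squares, rank between 2 and 24, and 36 genes lie at or above 1 TPM.

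The 3 libraries labelled sgkiaa1522 were compared for how evenly they carried the set. Summed over the 141 genes, they held 144, 125 and 155 CPM, and the sgcontrol libraries held 9.08, 6.87 and 7.94 CPM. Replicate 1 was the highest of the 3 for 54 genes, replicate 2 for 28 and replicate 3 for 59, where the rule itself required counts in all 3. Among other genes with more than 3 counts in all 6 libraries these shares were 39.54%, 29.55% and 30.91%. The median ratio between the highest and lowest CPM of a gene was 1.79. Its coefficient of variation (CV) over the 3 libraries had a median of 29%. As the CV of counting error, 1 over the square root of its mean count is given here, with a median of 32.7%. A CV from only 3 libraries falls below the true value more often than above it. The 2 values of each pair therefore do not show whether the spread was at or above counting error. The rule, which keeps no count of 3 or less in these libraries, also narrows this spread. In 1407 other genes whose lowest count in these libraries was 4 to 29 the median CV was 24.8%, against 24% from counting error. Among the 13 higher genes the median CV was 18.5%, against 13.5% from counting error. In 1001 other genes of that count range it was 14%, against 12.1% from counting error.

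The most uneven genes were all low. Ces1f, a liver carboxylesterase with close copies, had no count in sgcontrol and 12, 6 and 4 in the others, a ratio of 4.20 between highest and lowest CPM. Usp17lb had none against 15, 6 and 9, and Engase differed 3.64-fold, as given by its counts above. The 109 members with a sgcontrol count had an interval for their ratio, and its lower bound was at least 5 for 27 of them, under 2 for 34 and under 1 for 1 (Psg19, a pregnancy-specific glycoprotein, with 2, 2 and 3 counts against 5, 4 and 6).

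By chromosome, the X held 4 of the 13 genes with at least 30 counts, namely Adgrg2, Morc4, Maged2 and Gspt2. It held 9 of all 141 (6.38%), the others being Arhgap6, Xk, Trap1a, Cybb and Gm14636, where 3.88% of all genes in the tables and 2.84% of the genes read in every library lie on it. Chromosome 8 held 13 members (9.22%), against 3.78% and 5.4%. Chromosomes 7 and 11 also held 13 each, and chromosome 14 held 2. Members did not lie side by side. No pair was within 100 kb, and the closest were Hoxa10 with Halr1 and Xk with Cybb, 118 kb and 122 kb apart.

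Genes near the members were tested, since the rule did not use them. Because no member had more than 500 counts over the 6 libraries (the highest sum was 342, for Adgrg2), none was among the 10046 genes of the test. Over all of these, 275 (2.74%) were higher in the libraries labelled sgkiaa1522 and 436 (4.34%) were lower, where a call needs an adjusted p no higher than 0.05 and a log2 fold change of 1 or more in size. Of 392 tested genes within 100 kb of a member, 13 were higher (3.32%) and 10 lower (2.55%). Without the genes that share exon bases with their member, 9 of 368 were higher (2.45%) and 10 lower (2.72%). The median log2 fold change of the 392 was 0.06, against -0.01 over all tested genes, and 222 of them (56.6%) were above 0, against 49.4%. Within 50 kb 60.2% of 221 were above 0, and within 500 kb 51.9% of 1211. No test of these shares was made.

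Among the 13 neighbours that rose, Abcb1a, a drug efflux pump, had a log2 fold change of 3.15 (adjusted p = 2.2e-05, edgeR) and overlaps Gm42686, while its own neighbour Abcb1b rose by 1.20. Medag rose by 2.92 beside Gm20488, Kctd13 by 1.16 beside Gm21984 and Serf2 by 1.01 beside Serinc4, and these 3 with Abcb1a are the ones that share exon bases with a member. Steap3, an iron reductase 67.9 kb from C1ql2, rose by 2.16, Krtap1-5 by 2.09, Rab12 by 1.80, Zfp260 by 1.69, C2cd2l by 1.31, Adgrl1 by 1.26, Lyar by 1.02 and Kdm7a by 1.02. The calls of Lyar and Serf2 were at the limit and ended when some of the libraries were left out. Krtap1-5 had 36, 34 and 40 counts against 120, 137 and 162, and without any 1 library it had too few to be tested. Zfp260 rested on uneven libraries, with 186, 145 and 62 counts against 430, 445 and 214, and an adjusted p of 0.015. The 10 that fell were Phpt1, Npr2, Gm20503, 2810025M15Rik, Ptgr1, Podnl1, C1qtnf1, Lgals3bp, Ccdc109b and Smarcd3. The strongest log2 fold change was -1.57, in Smarcd3. Phpt1, Npr2 and Gm20503 were close to the threshold, and their calls were lost when certain libraries were left out.

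The 13 genes with at least 30 counts had 13 tested neighbours, which belonged to 9 of them. Kdm7a, a histone demethylase 18.3 kb from Parp12, was the 1 of these 13 (7.69%) that passed, with a log2 fold change of 1.02 and an adjusted p of 0.0022 (edgeR). It had 744, 563 and 433 counts against 760, 1250 and 1187, or 25.8 to 42.5 CPM against 62.3 to 69.6 CPM. The call ended without sgcontrol replicate 2 (log2 fold change 0.95), sgcontrol replicate 3 (0.87) or replicate 3 labelled sgkiaa1522 (0.99). In all, 12 of the 13 neighbours had log2 fold changes above 0, where 49.4% of all tested genes did, and their median was 0.31. Within 50 kb this held for 6 of 7 and within 500 kb for 27 of 39 (69.2%), and Elac2 and Atxn1 among the 13 share exon bases with their member. Phka2 beside Adgrg2 had 0.76 and Atxn1 beside Gmpr 0.60, and Rps20 beside Lyn, at -0.01, was the exception, though its sign changed with the library left out. Neighbours of 1 member are not independent of each other, and no test of this count was made.

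**Figure D5:**
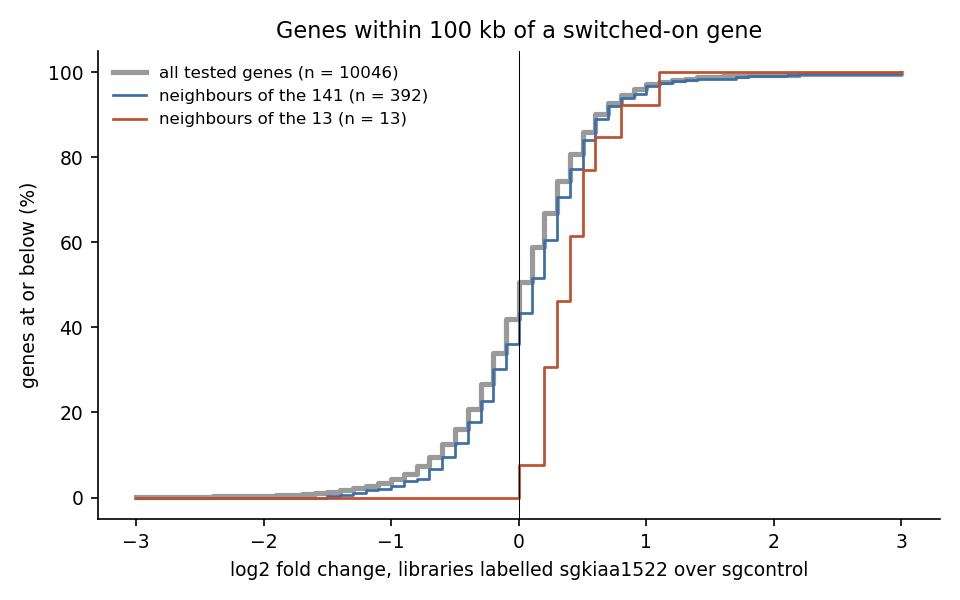
Share of tested genes (vertical axis, %) with a log2 fold change at or below the value on the horizontal axis, for all 10046 tested genes, the 392 within 100 kb of any of the 141 members and the 13 within 100 kb of a member with at least 30 counts. The curve of the 392 lies close to that of all genes, and the curve of the 13 lies to its right.

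Gene lists written by hand for silent or tissue-restricted functions held 4 of the 141 genes, or 1.23% of the listed genes, against 0.406% of all genes. None of 35 germline and cancer-testis genes, a list that does not hold the germ cell members described above, and none of 34 imprinted genes was a member. Members were found among homeobox and developmental transcription factors (Hoxa10, 1 of 72, as the list does not hold the members Hoxb3 and Gbx1), secreted growth factors and cytokines (Fgf21 and Tnfsf11, 2 of 59) and extracellular matrix genes (Nid2, 1 of 48). Neuronal genes and channels and solute carriers held none. Of 326 listed genes in the tables, 181 had at most 3 counts in all 6 libraries and 63 were tested, of which 10 were higher (15.9%) and 8 lower (12.7%), against 2.74% and 4.34% over all tested genes. The lists were written with earlier results of these data known, so these shares are a description and may reflect how the genes were picked.

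The listed genes that passed the test went both ways within a list. Among matrix genes, Mgp rose by 5.14 on the log2 scale (adjusted p = 3.3e-05, edgeR), Thbs2 by 3.33 and Acan by 1.79, while Ctgf fell by 1.87 and Fbln2 by 1.53. Among growth factors, Pgf rose by 1.56, Il34 by 1.46 and Angptl2 by 1.22, while Csf1 fell by 1.84, Wnt4 by 1.59 and Bmp4 by 1.20. Slc14a1 rose by 3.40 and Cacna2d1 by 2.29, and Cacna1g fell by 1.85. Syn1 rose by 1.75 and Cacna1a fell by 1.70, Prrx2 fell by 1.46, and of 4 tested imprinted genes Impact rose by 1.62. Of the 19 tested matrix genes 3 were thus higher (15.8%) and 2 lower (10.5%), and of the 18 tested growth factors 3 were higher and 3 lower (16.7% each).

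Markers of cell types were counted beside the set. No marker was a member. The epithelial markers Epcam, Cldn4, Cldn7 and Esrp1 had at most 3 counts in all 6 libraries, and the summed CPM of the 8 epithelial markers, mostly keratins, was 3790 to 4550 in sgcontrol and 3200 to 3480 in the others. Cdh1, the epithelial cadherin, fell by 1.45 on the log2 scale (adjusted p = 5.1e-05, edgeR), the 1 of the 4 tested epithelial markers that passed. The 9 lung epithelial markers summed to 46.1 to 101 CPM against 28.1 to 64.1, with Foxj1 at or near 0. Scgb1a1 was highest in sgcontrol replicate 1, with 293, 31 and 42 counts against 21, 28 and 75, Napsa had 19, 18 and 21 against 1, 5 and 3, and Ager had 46, 25 and 28 against 40, 53 and 49. The 8 fibroblast markers summed to 464 to 484 against 166 to 197, with Dcn, Lum and Thy1 at or near 0. The 8 leukocyte markers summed to 2.36 to 6.00 CPM against 11.2 to 13.9. The higher sum came from Cd68 alone, which had 21, 23 and 19 counts in sgcontrol and 122, 235 and 186 in the others. Lyz2 had 63, 18 and 37 against 11, 17 and 16, Ptprc had 14, 1 and 6 against 1, 2 and 2, Csf1r had at most 5 in any library, and Cd3e, Cd79a, Adgre1 and Itgam had at most 3 counts everywhere. The 8 endothelial markers summed to 3.70 to 5.60 against 9.38 to 11.7, with Cldn5, Emcn and Plvap at or near 0 and Vwf alone higher, at 66, 65 and 40 counts against 128, 189 and 144. The 8 smooth muscle markers summed to 79.9 to 89.0 against 158 to 172, almost all from Smtn, while Des had 21, 20 and 14 counts against 14, 7 and 4, with Acta2, Actg2, Cnn1 and Lmod1 at or near 0. The part of other cells in the members' counts was not tested.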

How the data were processed

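RNA of 889 cells was sequenced in 3 sgcontrol libraries and 3 labelled sgkiaa1522. The authors trimmed reads and removed rRNA reads with Seqtk, mapped them to GRCm38 with HISAT2 and counted uniquely mapped fragments per gene with StringTie. The submitters' processing notes give HISAT2 2.0.4 and StringTie 1.3.0, and the annotation release and strand setting are not given in the sources used here. The deposited values are raw counts for each Ensembl gene that no step has normalized. Of 34745 genes, 34344 were matched to GENCODE M21 on GRCm38 for positions, types and exon lengths, and 27 names in spreadsheet date form were replaced from it. A low count depends on depth, so a gene can pass or miss the rule through sampling alone.

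The members and lists were chosen with earlier results of these data known, and the functional groups and partner genes were written after the members' names were seen. Named members are those with at least 30 counts in each library labelled sgkiaa1522, up to 4 per functional group and 3 per gene type by CPM, 5 genes nearest the limits, the 3 most and least even, called neighbours and listed genes, and kiaa1522. Others are named by their position, as partners or after their values were seen. Some genes that these choices name are not reported here.

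CPM used library totals times TMM factors (0.989 to 1.01), and TPM used exon lengths. Ratios are of summed counts over summed depth with 95% exact conditional binomial intervals, and for a sgcontrol sum of 0 the floor of 3 counts over the group was used. The quasi-likelihood test of edgeR, adjusted by Benjamini-Hochberg, was fitted to genes with more than 500 counts in all, as in the study, after it was tested on simulated data. Alternatives were RLE factors, library size, DESeq2, other filters, windows and limits, the replicate number as a block, and each library left out. Limits for CpG-rich windows and the first listed start were added after the values were seen. Libraries of 1 group differed by at least 10.1 in chi-square per degree of freedom, so none is a resequenced copy of another. This check cannot tell separate cultures from separate preparations of 1 culture. R 4.3.3, edgeR 4.0.16, DESeq2 1.42.0, Python 3.11.15, pandas 2.3.3, SciPy 1.17.1 and matplotlib 3.10.9 were used.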

Additional observations from a re-analysis of the deposited data

How the results depend on the processing

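The number of switched-on genes depended on the limits. With at most 1 and more than 3 counts the rule chose 48 genes, 6 of them with at least 30 counts and 45 protein coding, and the mirror rule 44. With at most 3 and at least 10 counts these were 41, 13, 39 and 32. With at most 5 and more than 5 counts, 22 genes were in the class of at least 30. Of the 141 genes, 91 share no exon base, as do 5 of the 13. Leaving out 1 library gave 172 to 217 switched-on genes (217 without replicate 1 labelled sgkiaa1522, the shallowest), 13 to 17 in the class of at least 30, 146 to 169 protein-coding genes and 168 to 196 by the mirror rule (193 without sgcontrol replicate 1 and 196 without replicate 2 labelled sgkiaa1522). Scaling counts to a common depth gave 136 (TMM) and 171 (library size) genes. The ratios of 20 members (Pag1 and those whose ratio is given) had a lowest log2 value of 1.53 over the scalings and omissions tried, in a direction that the rule fixes. Of 160 such values 53 moved by more than the SD among libraries, all where a library was left out.

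Neighbours higher and lower numbered 8 and 5 within 50 kb (3.62% and 2.26%) and 35 and 38 within 500 kb (2.89% and 3.14%). Without a fold threshold, 120 neighbours were higher (30.6%) and 82 lower (20.9%), against 2638 and 2639 of all tested genes (26.3% each), with 24 and 22 listed genes. With edgeR's filterByExpr, 32 and 18 of 472 tested neighbours passed (6.78% and 3.81%), against 607 and 812 of 12141 genes (5% and 6.69%). Of listed genes, 19 and 16 passed. With all genes of at least 1 count, 39 and 23 of 707 neighbours passed (5.52% and 3.25%), against 767 and 941 of 18499 genes (4.15% and 5.09%). Of listed genes, 20 and 17 passed. Both filters test more genes of low count, and 44 and 141 members, whose direction the rule fixed, are among the genes they test, though none is a neighbour. Leaving out 1 library gave 6 to 9 listed genes higher (6 without replicate 2 labelled sgkiaa1522) and 6 to 8 lower (6 without sgcontrol replicate 3). Of 74 tested genes named here, the calls of Kdm7a, Lyar, Serf2, Npr2, Phpt1 and Gm20503 fell short of the fold threshold when certain libraries were left out. Calls were also lost where a gene then had no more than 500 counts in all and left the test. This befell some listed genes, and Krtap1-5 whichever library was left out. Lyar had log2 fold changes of 0.96 and 0.99 without sgcontrol replicates 2 and 3 and 0.95 without replicate 2 labelled sgkiaa1522. Serf2 had 0.97 without sgcontrol replicate 2, 0.95 without replicate 3 labelled sgkiaa1522 and 0.99 by library size alone. Npr2 had -0.98 without sgcontrol replicate 2, and Gm20503 had -0.79 without replicate 2 labelled sgkiaa1522. Phpt1 had -0.85 without sgcontrol replicate 3, -0.95 without replicate 2 or 3 labelled sgkiaa1522, -0.99 with filterByExpr and under the block, and lost its call with all genes of at least 1 count too. Leaving out 1 library moved the near-zero value of Rps20 from -0.171 to 0.166 and that of Yes1 from -0.076 to 0.215, and Rps20 was 0.011 under the block. The stricter CpG limits left 4 of the 10 windows and 13 of the 71. Same-numbered libraries did not deviate together (correlations -0.214, -0.0508 and -0.165), so the numbers name libraries and do not pair them. The fit with the replicate number as a block gave 13 neighbours higher and 9 lower, 285 and 434 of all genes and 10 and 8 listed genes.

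At these depths a member with 4 to 6 counts in each library labelled sgkiaa1522 cannot be separated from a gene just outside the limits. In 100 of the 141 genes the lowest of these counts was between 4 and 9. Some of the 100 were read more in another library, such as Atf7ip2 with 9, 35 and 14 counts.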
